A study of Homo sapiens with 20 samples.

Results

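A set of 10 autophagy genes was followed in colorectal cancer cell lines in which POLR1D, a subunit shared by RNA polymerases I and III, had been silenced. They were taken by name from the deposited tables, which hold 40117 rows under 36346 gene names in every library, so the 10 genes are 10 of 36346. Rows that share a name were summed. Among them, a pair of groups was set against each other. The first held cargo receptor and LC3 family genes that stress can induce (SQSTM1, NBR1, MAP1LC3B and GABARAPL1). The second held core genes, taken as steadily expressed for this contrast (ULK1, BECN1, ATG5, ATG12 and ATG16L1). Whether stress also raises these core genes was not tested. WIPI1 was described on its own.

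The study used HT29 cells, which carry a focal amplification on chromosome 13 where POLR1D lies, and SW480 cells, which have gained the whole chromosome. The transfections were SCR, the control, and siPOLR1D2 and siPOLR1D3, which target POLR1D, and both lines carried no other labelled change. HT29 had 4 SCR, 2 siPOLR1D2 and 2 siPOLR1D3 libraries, and SW480 had 6, 3 and 3. Knockdown was transient, each line is a single established line, and the labels do not say whether libraries of a group came from separate cultures, so that p-values measure the spread between these libraries, which may be technical.

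Autophagy encloses cytoplasm in a double membrane and delivers it to the lysosome. The ULK1 kinase starts the process, the lipid kinase complex around BECN1 marks the forming membrane, and WIPI proteins read that mark. ATG12 is joined to ATG5, and with ATG16L1 the pair attaches LC3 and GABARAP proteins to the membrane. Receptors such as SQSTM1 (p62) and NBR1 bind ubiquitinated cargo and LC3 together. In cells under amino acid or endoplasmic reticulum stress, the transcription factor ATF4 and its partner DDIT3 (CHOP) are known to raise transcription of several receptor and LC3 genes.

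MAP1LC3B, which encodes LC3B, spans chr16:87383995-87404779 on the plus strand (GENCODE 29, GRCh38) and has a near copy, MAP1LC3B2, at chr12:116548105-116576448. Their coding sequences are 378 bases each, differ at 2 bases (99.5% identity) and share a run of 307 identical bases. The windows around both differences are shown because few coding bases tell the pair apart. Parts of the transcripts outside the coding sequence were not compared. Positions are counted from 1 at the first base of the start codon, the differing base is in capitals, and the changes from MAP1LC3B to MAP1LC3B2 are C30G and A338G.
MAP1LC3B, bases 8 to 52: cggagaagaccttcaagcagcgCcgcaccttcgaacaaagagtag
MAP1LC3B2, bases 8 to 52: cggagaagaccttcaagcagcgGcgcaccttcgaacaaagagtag
MAP1LC3B, bases 316 to 360: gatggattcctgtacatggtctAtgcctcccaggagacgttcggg
MAP1LC3B2, bases 316 to 360: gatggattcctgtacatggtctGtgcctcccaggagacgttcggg

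All values below are normalized read counts per gene, scaled by the authors separately in each line, so that a level in HT29 and a level in SW480 are not on a common scale. They summed to between 17619830 and 22958216 per library, and the depth before normalization is unknown. POLR1D itself was lower in all 4 silenced HT29 libraries (2550 to 3492) than in all 4 SCR libraries (4433 to 6036), and lower in all 6 silenced SW480 libraries (843 to 1336) than in the 6 SCR libraries (1829 to 2599). In both lines, 6 of 7 colorectal epithelium markers reached a value of 10 in every library. The fibroblast markers summed to at most 730 in any library, the leukocyte markers to at most 167 and the endothelium markers to at most 136, against at least 132000 for the epithelium markers.

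Libraries of 1 group stood apart from each other. In HT29 the first principal component (43.3% of the variance) set SCR replicates 1 and 2 apart from the other 6 libraries. These 2 libraries also had the highest DDIT3, at 2061 and 1175, while SCR replicates 3 and 4 had 102 and 231 and the silenced libraries 77 to 94. In SW480 the first component (42% of the variance) placed SCR replicates 1 to 3 and siPOLR1D2 replicates 1 and 2 on one side, and the whole siPOLR1D3 group with SCR replicates 4 to 6 and the third siPOLR1D2 library on the other. The labels name no batch that matches either split, and its part in the results was not tested beyond the alternatives given beside them.

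**Figure D1:**
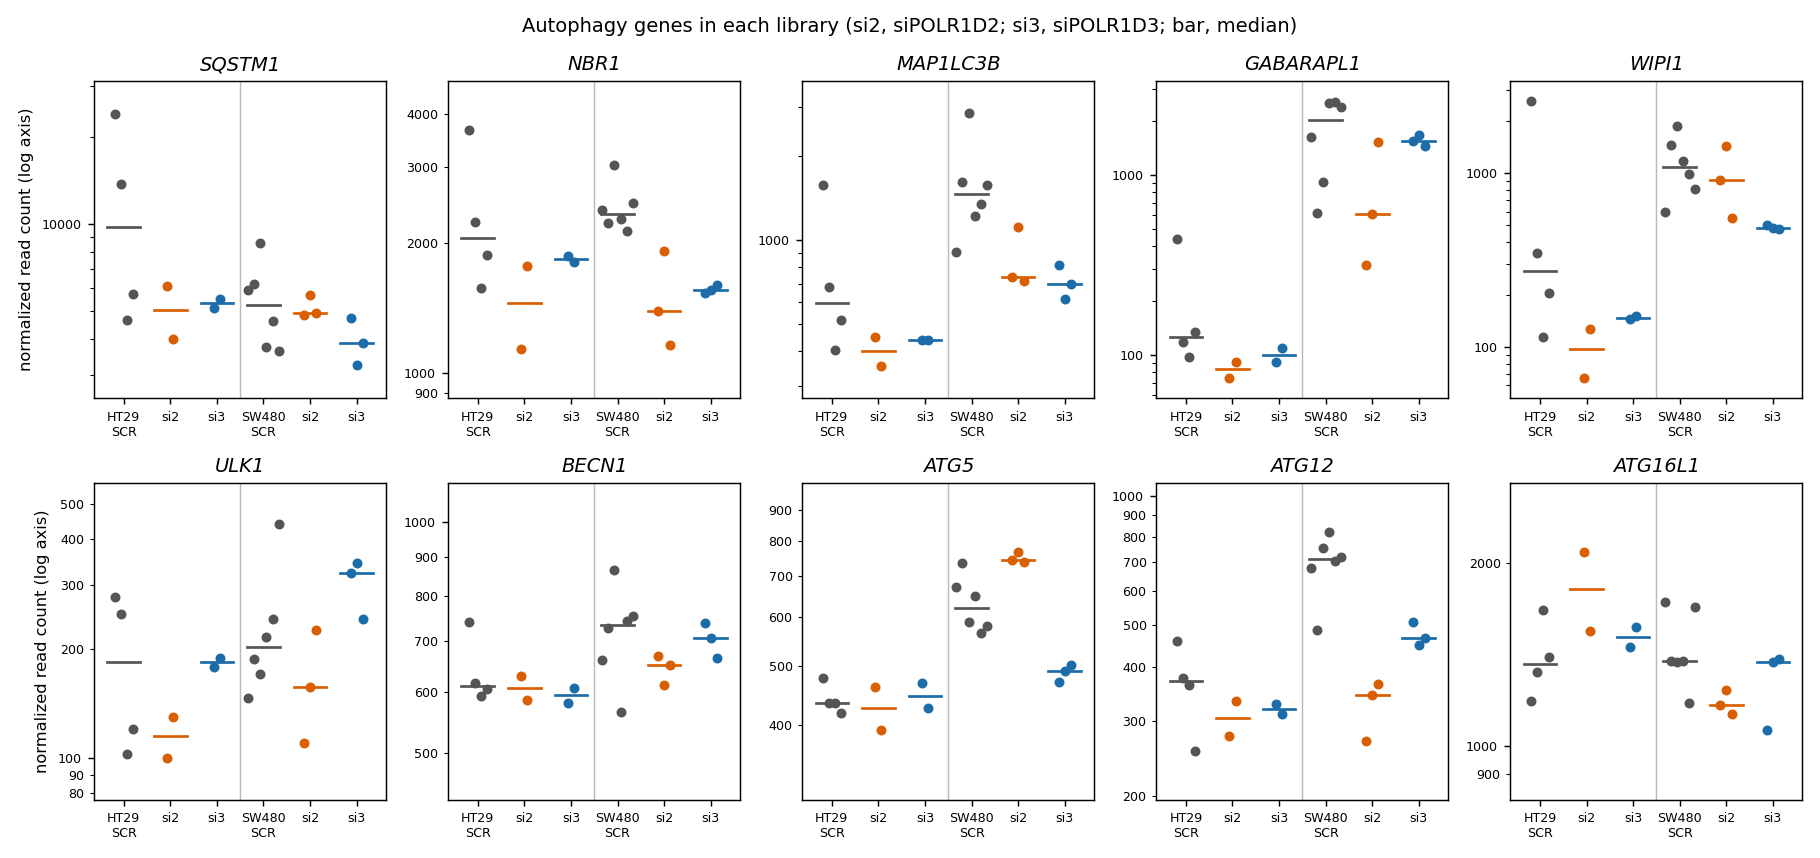
Normalized read count (log axis) of the 10 autophagy genes in each of 20 libraries, as points, with the median of each group as a bar. NBR1 in the 6 silenced SW480 libraries (1159 to 1917) lies below all 6 SCR libraries (2135 to 3040), whereas in HT29 SCR replicates 1 and 2 spread the control group of SQSTM1 and WIPI1 upwards.

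In SW480, silencing lowered 3 of the 10 genes: the cargo receptor NBR1, the LC3 gene MAP1LC3B and the conjugation gene ATG12. None of the 10 was raised. The other 7 did not pass the test, among them the receptor SQSTM1 and the core genes ULK1, BECN1 and ATG5. Limma on log2(value + 1) with Benjamini-Hochberg adjustment over 15019 genes called 4.29% of all genes lower. The 10 genes were chosen with earlier results of these data known, so 3 of 10 beside that share is no test of the list. The same holds for the shares given below.

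NBR1 (chr17:43170481-43211689) ranged from 2135 over a median of 2334 to 3040 in the 6 SCR libraries of SW480. In the 6 silenced libraries it ranged from 1159 over a median of 1544 to 1917. The groups did not overlap. NBR1 fell by 0.67 on the log2 scale (SE 0.12, n = 6 and 6, limma adjusted p = 0.00803), a 1.6-fold lower value. It remained called without any 1 library (adjusted p 0.0058 to 0.0228). In bulk RNA, less of a transcript per cell and fewer cells that express it cannot be told apart.

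MAP1LC3B had 910, 1623, 2867, 1221, 1351 and 1583 reads in SW480 SCR replicates 1 to 6. It had 740, 1121 and 718 reads with siPOLR1D2 and 816, 617 and 696 with siPOLR1D3. SCR replicate 3 was the highest library, and siPOLR1D2 replicate 2 overlapped the SCR range. The gene fell by 0.95 on the log2 scale (SE 0.23, n = 6 and 6, limma adjusted p = 0.0261). The call was lost without SCR replicate 6, siPOLR1D2 replicate 3, siPOLR1D3 replicate 2 or siPOLR1D3 replicate 3, with an adjusted p of at most 0.0578 over all left-out libraries. The near copy MAP1LC3B2 had a log2 change of -0.89 (SE 0.26, limma adjusted p = 0.0536), and the sum of both MAP1LC3B genes one of -0.93 (limma adjusted p = 0.03), so that the call did not depend on how reads were split between them.

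ATG12 (chr5:115828200-115841858, minus strand), the ubiquitin-like protein that is joined to ATG5, was the only core gene that changed. It ranged from 487 over a median of 712 to 824 in the SCR libraries of SW480 and from 269 over 406 to 510 in the silenced ones. SCR replicate 2, the lowest control, lay inside the silenced range. ATG12 fell by 0.81 on the log2 scale (SE 0.17, n = 6 and 6, limma adjusted p = 0.016). It stayed below 0.05 without any 1 library (0.00923 to 0.0394), but not after upper quartile scaling (0.0646).

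Of the 10 genes, only NBR1 had silenced and SCR libraries that did not overlap in SW480, where 2.88% of all genes lay wholly lower. With both siRNAs pooled, no gene of the 10 did so in HT29, where the share was 4.17%.

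GABARAPL1, an LC3 relative that stress can induce, varied most with the split of the SW480 libraries. SCR replicates 1 to 3 had 1625, 612 and 912 reads, and SCR replicates 4 to 6 had 2514, 2553 and 2388. The siPOLR1D2 libraries had 317, 603 and 1523 reads, and the siPOLR1D3 libraries 1537, 1673 and 1452. Pooled, the log2 change was -0.61 (SE 0.46, limma adjusted p = 0.459). Among libraries on the side of SCR replicates 4 to 6, all 4 silenced libraries (1452 to 1673) lay below all 3 SCR libraries (2388 to 2553), as 14.2% of all genes did. On the other side, the 2 silenced libraries (317 and 603) lay below the 3 SCR libraries (612 to 1625), the nearest of them by a small margin, as did 14.9% of all genes. With the side as a term in the fit, chosen after seeing the data, GABARAPL1 fell by 0.88 on the log2 scale (SE 0.21, limma adjusted p = 0.0152), where 7.86% of all genes were called lower. The side was itself taken from the values of these libraries, silenced ones included. This fit is therefore no independent support for a fall of GABARAPL1.

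SQSTM1 ranged from 3627 to 8602 in the SCR libraries of SW480 and from 3248 to 5655 in the silenced ones. The groups overlapped over most of their range, and the log2 change was -0.22 (SE 0.20, limma adjusted p = 0.569). Against SCR replicates 4 to 6 only it turned to 0.17. WIPI1 ranged from 595 to 1862 in SCR and from 477 to 1435 in silenced libraries, with a log2 change of -0.70 (SE 0.31, limma adjusted p = 0.2).

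BECN1, the scaffold of the lipid kinase complex, ranged from 565 to 865 in SCR and from 614 to 739 in silenced SW480 libraries. Its log2 change was -0.08 with a 95% interval of -0.32 to 0.15. ATG5 had -0.06 (-0.38 to 0.26) and ULK1 -0.01 (-0.67 to 0.65), and the signs of BECN1, ATG5 and ULK1 turned positive under upper quartile scaling. ATG16L1 had a log2 change of -0.24 (-0.48 to 0.00, limma adjusted p = 0.22). Its 2 rows hold the same values, so its level may be counted double, which leaves its fold change as it is.

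**Figure D2:**
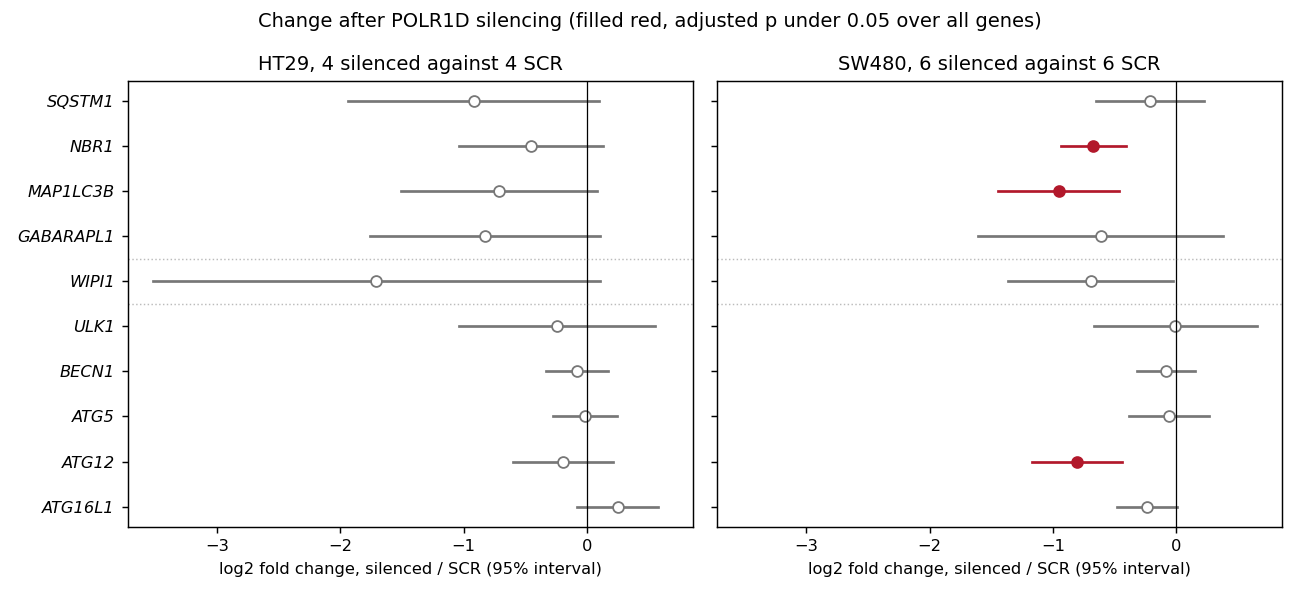
Log2 fold change of the 10 genes in silenced against SCR libraries with 95% intervals (x axis), HT29 left and SW480 right; filled red points passed an adjusted p of 0.05 over all genes. In SW480 NBR1, MAP1LC3B and ATG12 are filled and all 10 estimates lie below 0, and in HT29 no point is filled and the interval of WIPI1 reaches from -3.52 to 0.10.

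In HT29, none of the 10 genes passed the test, and limma called 0% of all 13274 genes tested. POLR1D, the silenced gene, was also not called, and the smallest limma adjusted p over all genes was 0.316. A missing call in HT29 therefore does not show that a gene was unchanged. At an unadjusted p under 0.05 limma counted 0 of the 10 genes and 1422 genes in all. Of the 10 estimates, 9 were below 0, with a median of -0.35 against a median of 0 over all genes. In SW480 the 10 estimates, all below 0, had a median of -0.43 against 0.01. These medians describe the lists and carry no test.

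The HT29 estimates rested on SCR replicates 1 and 2. SQSTM1 had 23962, 13755, 4639 and 5709 reads in SCR replicates 1 to 4, 6089 and 4001 with siPOLR1D2, and 5123 and 5494 with siPOLR1D3. Only the first 2 controls lay above the silenced libraries. Over all SCR libraries the log2 change of SQSTM1 was -0.92 (SE 0.45, limma adjusted p = 0.495), and over SCR replicates 3 and 4 only it was -0.01 (SE 0.16).

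WIPI1, which reads the lipid mark on the forming membrane, had 2607, 346, 114 and 204 reads in the HT29 SCR libraries. It had 66 and 127 with siPOLR1D2 and 145 and 150 with siPOLR1D3. SCR replicate 1 stood far above every other library. The log2 change of WIPI1 was -1.71 (SE 0.81, limma adjusted p = 0.489), or -0.39 (SE 0.36) over SCR replicates 3 and 4 only.

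MAP1LC3B in HT29 had 1580, 681, 405 and 516 reads in SCR and 450, 354, 441 and 441 in silenced libraries. GABARAPL1 had 437, 118, 98 and 134 reads in SCR and 75, 91, 91 and 109 in silenced libraries. NBR1 had 3665, 2237, 1573 and 1876 reads in SCR and 1136, 1775, 1869 and 1814 in silenced libraries. For all 3 genes SCR replicate 1 was the highest library. Over SCR replicates 3 and 4 only, the log2 changes were -0.13 for MAP1LC3B, -0.34 for GABARAPL1 and -0.09 for NBR1.

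Among the core genes of HT29, BECN1 had 741, 616, 593 and 606 reads in SCR and 582 to 630 in silenced libraries, and ATG5 had 418 to 478 in SCR and 392 to 467 in silenced libraries. Their log2 changes were -0.08 (95% interval -0.34 to 0.17) and -0.02 (-0.27 to 0.24), and both turned positive under upper quartile scaling. ATG12, which fell in SW480, ranged from 255 to 458 in SCR and from 275 to 332 in silenced HT29 libraries, with a log2 change of -0.20 (-0.60 to 0.21). ULK1 had 278 and 249 reads in SCR replicates 1 and 2, 103 and 120 in replicates 3 and 4, and 100 to 189 in silenced libraries. Its log2 change was -0.24 over all SCR libraries and 0.38 over SCR replicates 3 and 4 only, where BECN1, ATG5 and ATG12 had 0.004, 0.03 and 0.03. ATG16L1 was the only gene of the 10 with a positive estimate in HT29, at 0.25 (-0.08 to 0.58).

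Whether the lines differed was tested as an interaction over all 20 libraries. None of the 10 genes passed, where 0.0393% of all genes did (5 of 12724). At an unadjusted p under 0.05 there were 2 of the 10, ATG16L1 (difference of -0.49, SW480 minus HT29, limma adjusted p = 0.439) and ATG12 (-0.61, limma adjusted p = 0.514). That 3 genes passed in SW480 and none in HT29 is therefore not shown to be a difference between the lines.

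The contrast of the groups was then taken within each library, as the mean log2(value + 1) of the 4 cargo receptor and LC3 genes minus that of the 5 core genes, without a test. In SW480 it was 1.89 ± 0.19 (SD, n = 6) in SCR and 1.51 ± 0.15 (n = 6) in silenced libraries, a difference of -0.37. The groups touched: the lowest SCR library had 1.69 and the highest silenced library 1.71. In HT29 it was 1.39 ± 0.67 (n = 4) in SCR and 0.72 ± 0.07 (n = 4) in silenced libraries. SCR replicate 1 had 2.32, replicate 2 had 1.31, replicate 4 had 1.20 and replicate 3, inside the silenced range of 0.66 to 0.81, had 0.74. The HT29 difference of -0.67 was -0.25 over SCR replicates 3 and 4 only. By gene, the median log2 change of the 4 receptor and LC3 genes was -0.64 in SW480 and -0.77 in HT29, and that of the 5 core genes was -0.08 in both lines. For siPOLR1D2 and siPOLR1D3 taken alone in SW480, the core median was -0.29 and -0.19 and the receptor and LC3 median -0.78 and -0.52. ATG12, with the second largest change in SW480, and SQSTM1, which did not pass, went against this division.

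**Figure D3:**
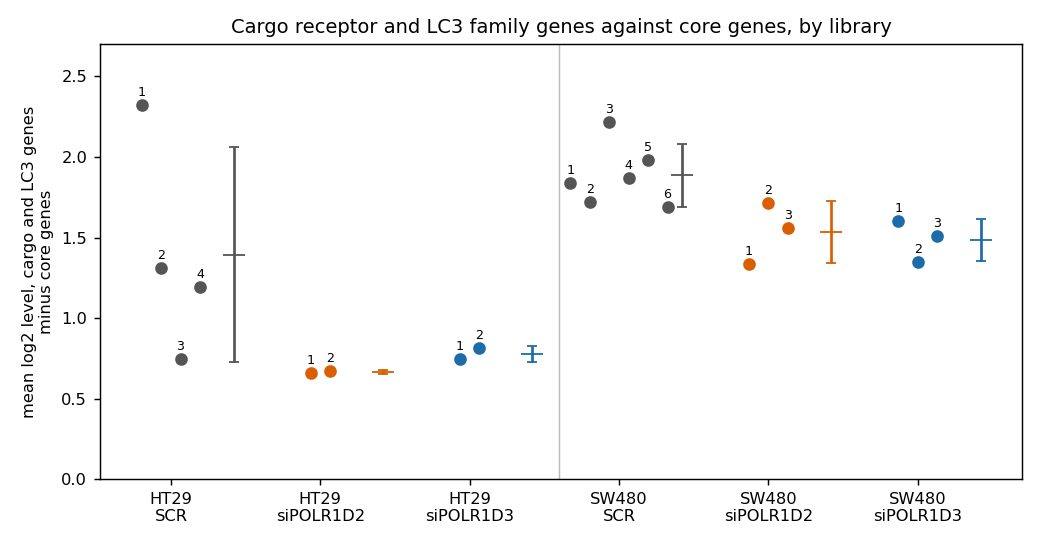
Mean log2 level of the cargo receptor and LC3 genes minus that of the core genes (y axis) in each library, numbered by replicate, with mean ± SD of each group beside the points. HT29 SCR replicate 1 stands at 2.32, and the silenced libraries lie between 0.66 and 0.81 in HT29 and between 1.33 and 1.71 in SW480.

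Of 3 stress response genes, all fell in SW480 and none passed in HT29. In SW480, ATF4 fell by 0.82 on the log2 scale (SE 0.14, limma adjusted p = 0.00649), with 5961 to 8030 reads in SCR and 2839 to 5347 in silenced libraries. DDIT3 fell by 1.74 (SE 0.40, limma adjusted p = 0.0224), with 228.1 to 1309 reads in SCR and 134.8 to 310.5 in silenced libraries. TRIB3, a target of both factors, fell by 1.70 (SE 0.37, limma adjusted p = 0.0177), with 408 to 2035 and 249.1 to 655.9 reads. The SW480 groups thus overlapped for DDIT3 and TRIB3 and not for ATF4. These 3 calls were not checked with libraries left out. In HT29, ATF4 (log2 change -0.71, limma adjusted p = 0.355), DDIT3 (-2.55, 0.408) and TRIB3 (-1.84, 0.43) did not pass. The paper, which used DESeq2, listed POLR1D, ATF4 and DDIT3 as lower in HT29 and in SW480. TRIB3 was not in its list of genes changed in both lines. All silenced HT29 libraries lay below all SCR libraries for ATF4 and DDIT3, as for 4.17% of all genes, and the groups overlapped for TRIB3 (243 to 2660 in SCR and 159 to 297 in silenced libraries). Their part in the change of the autophagy genes was not tested.

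Each siRNA was next compared with the SCR libraries of its line. Both comparisons share those controls, so that their agreement is no independent support. In SW480, siPOLR1D2 lowered 2 of the 10 genes, where 5.0% of all genes were called lower. ATG12 fell by 1.08 (SE 0.16, limma adjusted p = 0.00275), with 269, 344 and 364 reads, and NBR1 fell by 0.73 (SE 0.15, limma adjusted p = 0.013), with 1390, 1917 and 1159 reads. siPOLR1D3 also lowered 2 of the 10, where the share was 4.45%. MAP1LC3B fell by 1.08 (SE 0.28, limma adjusted p = 0.0401) and NBR1 fell by 0.62 (SE 0.15, limma adjusted p = 0.03), with 1534, 1555 and 1601 reads.

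These calls were sensitive to single libraries and to the settings of the fit. NBR1 lost its call with siPOLR1D2 without siPOLR1D2 replicate 1 or 3 (adjusted p at most 0.0625). With siPOLR1D3 it lost it without SCR replicate 6 or any of the 3 siPOLR1D3 replicates (at most 0.135). The siPOLR1D3 call of MAP1LC3B was lost without SCR replicate 2, 5 or 6, siPOLR1D2 replicate 1 or any siPOLR1D3 replicate (at most 0.15). ATG12 with siPOLR1D2 was called without any 1 library (at most 0.0204). Against SCR replicates 1 to 3 only, siPOLR1D2 called 0 genes, and limma's adjusted p was 0.181 for ATG12 and 0.213 for NBR1. Both siPOLR1D3 calls were lost with upper quartile scaling, without the variance trend and with the side as a term (limma adjusted p of 0.1, 0.0519 and 0.0628 for NBR1 and 0.0854, 0.0633 and 0.0843 for MAP1LC3B), and both were kept against SCR replicates 4 to 6 only.

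ATG5 (chr6:106045423-106325791, minus strand) took opposite signs. It had 745, 766 and 739 reads with siPOLR1D2, above all 6 SCR libraries (565 to 736), and 470, 489 and 501 with siPOLR1D3, below all of them. Neither change passed against SCR (log2 change 0.25, limma adjusted p = 0.175, and -0.37, 0.0634). The difference between the siRNAs passed, at 0.62 (SE 0.13, n = 3 and 3, limma adjusted p = 0.0253), and ATG5 was the only one of the 10 among the 3.32% of genes called in that test. The call was lost without siPOLR1D2 replicate 1 or 2 or any siPOLR1D3 replicate (adjusted p at most 0.107). With the side of the first component as a term it was 0.55 (limma adjusted p = 0.073), and all 3 siPOLR1D3 libraries, but 1 siPOLR1D2 library, were on one side.

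ATG12 was at 269 to 364 with siPOLR1D2 and at 449 to 510 with siPOLR1D3. The difference of -0.55 did not pass (95% interval -0.96 to -0.15, limma adjusted p = 0.115). ULK1 had 110, 157 and 225 reads with siPOLR1D2 and 323, 344 and 242 with siPOLR1D3, a difference of -0.93 (-1.72 to -0.14, limma adjusted p = 0.166). WIPI1 was at 551 to 1435 with siPOLR1D2 and at 477 to 502 with siPOLR1D3, where it lay below all SCR libraries (log2 change -1.14, SE 0.34, limma adjusted p = 0.0613). NBR1 differed by -0.10 between the siRNAs, with an interval of -0.48 to 0.27.

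With siPOLR1D2, ATG12 and NBR1 lay wholly below the SCR libraries of SW480, where 6.86% of all genes did, and ATG5 wholly above, where 5.82% did. With siPOLR1D3, NBR1, MAP1LC3B, WIPI1 and ATG5 lay wholly below, where 10.9% did. In HT29, limma called 0% of genes for either siRNA and for their difference, and 0 of the 10 genes had an unadjusted p under 0.05 in these 3 tests, of 579, 1031 and 207 genes in all.

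**Figure D4:**
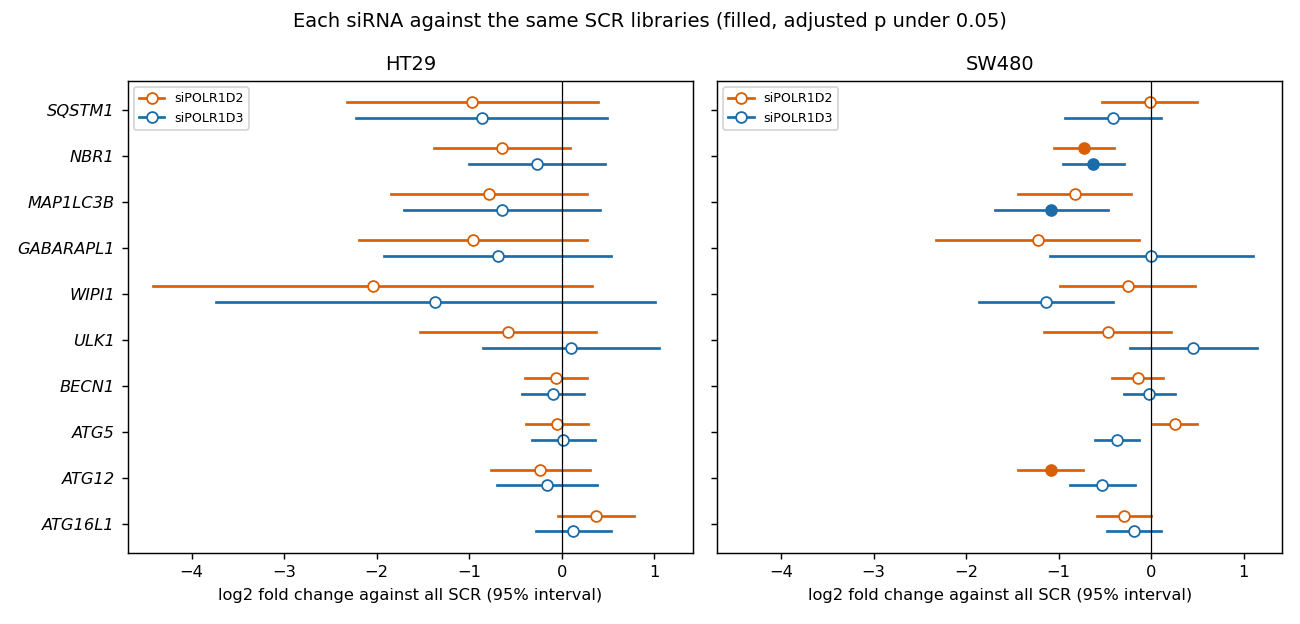
Log2 fold change against all SCR libraries of the line with 95% intervals (x axis) for siPOLR1D2 and siPOLR1D3, HT29 left and SW480 right; filled points passed an adjusted p of 0.05. In SW480 the estimates of ATG5 lie on either side of 0, at 0.25 and -0.37, and ATG12 and NBR1 are filled for siPOLR1D2 and MAP1LC3B and NBR1 for siPOLR1D3.

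A list of 76 other autophagy and lysosome genes placed the 10 in their pathway. In SW480, 74 of the 76 were tested, of which 8 fell and 4 rose, where 4.29% of all genes were called lower and 2.44% higher. This list too was chosen with earlier results known, so these shares are no test of it. The median log2 change of the 74 was -0.07 against 0.01 over all genes. In HT29 limma called 0 of 73.

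Cargo receptors made up most of those that fell: 5 of 14 receptors were lower and none was higher. With siPOLR1D2 alone 5 of the 14 were lower (median log2 change -0.47, 12 estimates below 0). With siPOLR1D3 alone only 2 were lower (median -0.07, 7 estimates below 0). CALCOCO2 (NDP52), which recognizes bacteria and damaged mitochondria, ranged from 1530 to 2811 in SCR and from 1163 to 1440 in silenced libraries and fell by 0.83 on the log2 scale (SE 0.14, limma adjusted p = 0.00564). CCPG1, a receptor for the endoplasmic reticulum, ranged from 444 to 1554 in SCR and from 238 to 436 in silenced libraries and fell by 1.19 (SE 0.26, limma adjusted p = 0.0187). For both genes the silenced libraries lay wholly below the SCR libraries, CCPG1 by a small margin, as did 2.88% of all genes. TAX1BP1 fell by 0.57 (limma adjusted p = 0.0191) and the mitochondrial receptor BNIP3L fell by 0.72 (limma adjusted p = 0.03). OPTN fell by 0.79 at the edge of the threshold (limma adjusted p = 0.0491) and lost its call without any 1 of the 12 libraries. The silenced libraries of TAX1BP1 (at most 5458 against at least 5466 in SCR) and OPTN (3097 against 3264) also lay wholly below. Those of BNIP3L overlapped the SCR libraries. BNIP3L lost its call without SCR replicate 3, 4 or 5 or siPOLR1D2 replicate 1 or 3 (at most 0.0682).

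TMEM41B and VMP1, lipid scramblases of the endoplasmic reticulum that act in membrane expansion, fell too. TMEM41B fell by 0.86 (limma adjusted p = 0.0166) and VMP1 fell by 0.75 (limma adjusted p = 0.0139). They were 2 of 9 genes of their group, and the ATG2 and ATG9 genes beside them did not pass. The silenced libraries of TMEM41B and VMP1 also lay wholly below the SCR libraries, as did 2.88% of all genes. VMP1 was lower with siPOLR1D2 than with siPOLR1D3, by 0.52 to 0.71 over fits that left out 1 library each. That difference was called in 7 of these 12 fits, and the one of TMEM41B in 1. None of the 3 tested LC3 relatives, 4 ULK complex, 7 lipid kinase complex and 8 further conjugation genes passed. Of the fusion genes, VPS16 fell by 0.42 and VPS11 rose by 0.47 (limma adjusted p = 0.0188 and 0.041). The silenced libraries of VPS16 lay wholly below the SCR libraries, and the groups overlapped for VPS11.

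Of the lysosome genes, 3 of 16 were higher, none was lower and 13 did not pass, and 6 of the 16 estimates were below 0. With siPOLR1D2 alone 0 of the 16 were called (median log2 change -0.04), and with siPOLR1D3 alone 2 were higher (median 0.37). LAMP2, a lysosomal membrane protein, ranged from 640 to 1477 in SCR and from 1398 to 2249 in silenced libraries and rose by 0.82 (SE 0.20, limma adjusted p = 0.0297). The protease gene CTSD ranged from 818 to 1848 in SCR and from 1548 to 2614 in silenced libraries and rose by 0.79 (SE 0.19, limma adjusted p = 0.0291). ATP6V0D1 rose by 0.45 (limma adjusted p = 0.0422). The groups overlapped for LAMP2 and CTSD. Single libraries decided these calls: LAMP2 was called in 6, CTSD in 4, ATP6V0D1 in 2 and VPS11 in 2 of 12 fits that left out 1 library each, with adjusted p of at most 0.0676, 0.0664, 0.0905 and 0.0875. LAMP2 was lost without SCR replicate 3 or 4, siPOLR1D2 replicate 3 or any siPOLR1D3 replicate, and CTSD without those or SCR replicate 2 or 6. ATP6V0D1 was kept only without SCR replicate 1 or 2, and VPS11 only without SCR replicate 5 or siPOLR1D3 replicate 2. The genes for TFEB and TFE3, factors that drive lysosome genes, had log2 changes of -0.19 and -0.27 and did not pass.

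**Figure D5:**
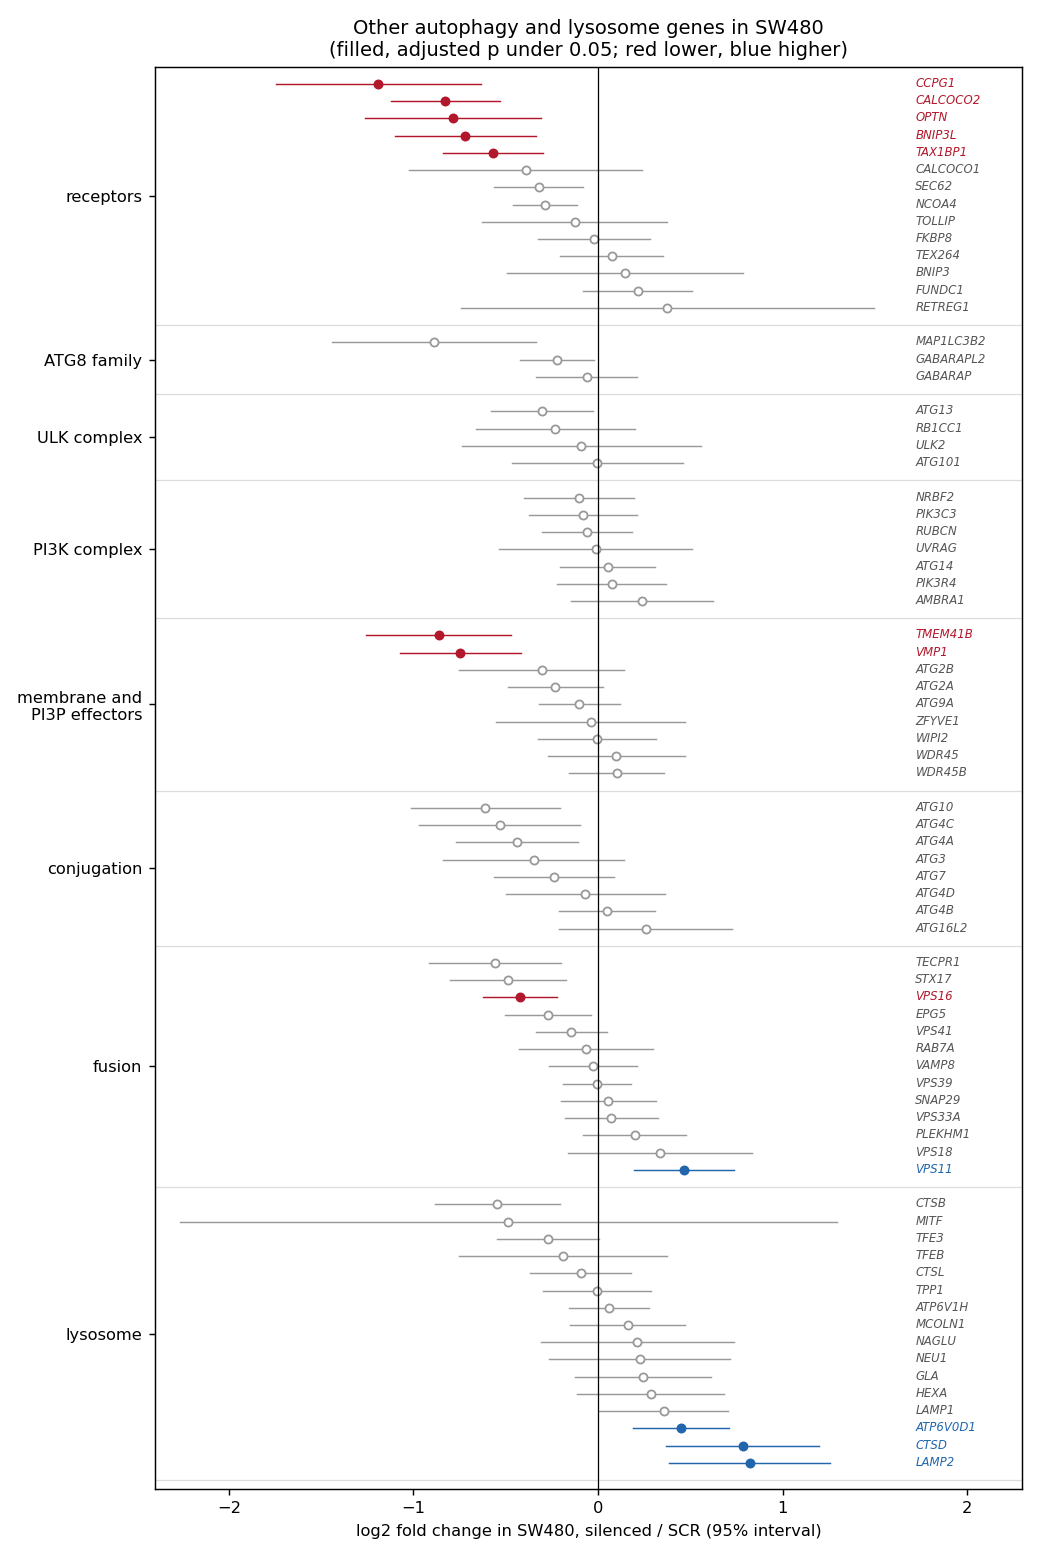
Log2 fold change in SW480, silenced against SCR, with 95% intervals (x axis) for 74 other autophagy and lysosome genes grouped by role; filled points passed an adjusted p of 0.05 over all genes. The filled points are 5 receptors, TMEM41B, VMP1 and VPS16 below 0 and VPS11 and 3 lysosome genes above 0.

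The genes whose levels were most like those of 2 of the members were named over the 20 libraries, by Pearson correlation of log2 values centred in each line among 12723 genes. For MAP1LC3B they were MAP1LC3B2 (0.96), TNFRSF10B (0.955), EIF1 (0.947), XPOT (0.945) and IARS (0.942). For SQSTM1 they were LONP1 (0.908), AP3D1 (0.906), GCLC (0.898), RNF19B (0.895) and SLC3A2 (0.885). MAP1LC3B correlated with NBR1 at 0.851 and WIPI1 at 0.84, and with GABARAPL1 at 0.329 and ULK1 at 0.256. The libraries share their SCR split, MAP1LC3B2 shares most of its coding sequence with MAP1LC3B, and the values are descriptions.

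Promoters of all 10 genes were read from RefSeq (GRCh38.p14), 250 bases before to 50 after each start site, on both strands. The letters TCACGTG, the core of the element bound by TFEB, were found in none of the 10 and in 4.49% of 27305 genes. TGATGNAA, the composite element bound by ATF4, was found in none of the 10 and in 4.46% of genes. TGACNNNGC, the core of the antioxidant response element, was found in 1 of the 10 and in 16.1% of genes. It lay 46 bases before the start site of MAP1LC3B, the LC3 gene that fell in SW480, and is shown in capitals in the stretch around it.
MAP1LC3B, chr16:87392260-87392328, plus strand: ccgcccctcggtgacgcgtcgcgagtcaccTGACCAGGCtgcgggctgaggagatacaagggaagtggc
These windows do not hold elements farther away or within introns.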

How the data were processed

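HT29 and SW480 colorectal cancer cells were transfected with SCR, siPOLR1D2 or siPOLR1D3, and coding transcripts were captured and sequenced as paired ends. Per the labels, the authors checked reads with FastQC 0.11.5, estimated counts with kallisto 0.44.0 and normalized them with DESeq2 1.24.0 (hg38). The transcript index was not given in the sources used here. The deposited values are a normalized signal per gene, scaled within each line. They are not whole numbers. Among low values, 21.1% to 48.9% were whole multiples of the commonest low value of the library (tolerance 0.01). Reads were therefore not recovered and no count model was run.

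The 10 genes and all lists were chosen with earlier results of these data known. Every member, POLR1D, ATF4, DDIT3, TRIB3 and those genes of the wider list that passed were to be named. An item of the wider list is not reported here. Testing covered genes that reached 10 in 4 or more HT29 or 6 or more SW480 libraries, with limma 3.58.1 (R 4.3.3) on log2(value + 1), with a mean-variance trend and Benjamini-Hochberg adjustment over all genes tested. Fold changes are on that scale, which understates changes of low genes. Intervals are limma's. All 10 members passed the filter in both lines. The fit was tested on simulated data for its recovery of fold changes. Those data had independent noise and no split of the libraries, so they do not test the p-values under that split. No pair of libraries within a group held near-identical values, and pairs across groups were not compared. Alternatives changed the pseudocount, filter, scaling, variance model, row handling, controls and left-out libraries.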

Additional observations from a re-analysis of the deposited data

Results flagged for a closer look

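In 40 groups of 4 or 6 libraries (each member in SCR and silenced libraries of each line), the highest or lowest library was compared with its nearest neighbour by Dixon's ratio. Chance alone picks out about 1 in 20 groups, and 7 stood apart here. In the HT29 SCR libraries, replicate 1 was far above the other 3 for WIPI1 (2607, a gap of 0.907 of the range), GABARAPL1 (436.9, 0.893) and BECN1 (741.3, 0.842). This is the library that also stood farthest along the first principal component. In the silenced HT29 libraries, siPOLR1D2 replicate 1 was low for NBR1 (1136, 0.872) and siPOLR1D2 replicate 2 was low for MAP1LC3B (353.8, 0.909). In the SW480 SCR libraries, replicate 3 was high for MAP1LC3B (2867, 0.635) and replicate 6 was high for ULK1 (440.9, 0.676).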

How the results depend on the processing

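Same-numbered libraries did not deviate together (correlations of -0.174 to 0.038 over 6 pairs in HT29 and -0.595 to 0.391 over 9 pairs in SW480), so the numbers were not taken as pairs. With a replicate block, the called members went from 3 to 0 in SW480 (genes from 1011 to 0), from 2 to 0 for siPOLR1D2 (1225 to 20 genes), from 2 to 0 for siPOLR1D3, from 1 to 0 for the difference of the siRNAs (498 to 39 genes) and from 0 to 3 in HT29 (0 to 735 genes: SQSTM1 -1.83, MAP1LC3B -1.31, WIPI1 -3.02), and GABARAPL1 in SW480 turned to 0.067 and ULK1 to 0.37. The block gave 97 genes in place of 5 for the difference between the lines and 8 and 23 in place of 0 for siPOLR1D2 and siPOLR1D3 in HT29, none of them a member. That fit draws its contrast only from the control numbers that the silenced libraries share. These are SCR replicates 1 and 2 in HT29 and SCR replicates 1 to 3 in SW480, so SCR replicates 4 to 6 drop out. For siPOLR1D2, called members were 0 with SCR replicates 1 to 3 only (1225 to 0 genes), 4 with the side of the first component as a term (2241 genes) and 1 to 3 with a library left out (446 to 1806 genes). For siPOLR1D3 they were 1 without a filter, 0 with upper quartile scaling, 0 without a variance trend, 5 with SCR replicates 4 to 6 only (3059 genes), 1 with the side as a term and 0 to 3 with a library left out (119 to 1353 genes, and 0 members without any 1 siPOLR1D3 library or without SCR replicate 6). For the difference of the siRNAs they were 0 with upper quartile scaling (278 genes), 0 with the side as a term (213 genes) and 0 to 1 with a library left out (39 to 777 genes), and genes numbered 289 without a filter and 293 without a variance trend. Genes called in SW480 numbered 666 without a filter, 1993 with the side as a term and 534 to 1283 with a library left out. For the difference between the lines they numbered 3 to 9 over the scaling, filter and variance alternatives and 2 to 17 with a library left out (17 without SW480 SCR replicate 2 and 15 without HT29 SCR replicate 3), with no member among them.

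Upper quartile scaling moved the median log2 change of all genes to 0.11 in SW480 and 0.18 for siPOLR1D3, and the share of calls that were lower went from 63.7% to 34.9% in SW480, from 61.3% to 48.3% for siPOLR1D2 and from 67.4% to 33.8% for siPOLR1D3. Under it BECN1 turned to 0.015 and 0.011 and ATG5 to 0.039 and 0.077 in SW480 and HT29, and ULK1 to 0.09 in SW480. Quantile normalization turned ULK1 to 0.018 in SW480 and ATG5 to 0.015 in HT29. With HT29 SCR replicates 3 and 4 only, ATG12 turned to 0.028, ATG5 to 0.032, BECN1 to 0.004 and ULK1 to 0.38, and with SW480 SCR replicates 4 to 6 only SQSTM1 turned to 0.17 and ATG5 to 0.015. With a library left out, ULK1 ranged from -0.141 to 0.194 and ATG5 from -0.128 to 0.013 in SW480, and ATG5 from -0.051 to 0.034 in HT29. The cause was not tested. The side term, the restricted controls of HT29 and of both siRNAs in SW480 and the MAP1LC3B sum were chosen after seeing the data. NBR1, MAP1LC3B and ATG12 stayed below 0 in SW480 under every alternative run. With no whole counts, the counting error of low genes could not be given.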
